A study of Homo sapiens with 18 samples.

Results

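The regions described here are peaks of N6-methyladenosine (m6A) that the authors annotated to the 5' UTR of a transcript. They are the rows whose annotation starts with 5' UTR in 2 deposited tables of differential peaks, 1 for each nanomaterial against untreated cells. The table for black phosphorus quantum dots (BPQDs) held 3734 such peaks among 14903, in 3159 genes. The table for titanium dioxide (TiO2) held 3406 among 12891, in 2894 genes. Together they made up 7140 of 27794 peaks, in 4329 genes. The choice used position only, so the change in m6A at each peak was free to go either way.

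The cells were labelled A549, an established human lung adenocarcinoma line. One group was left untreated, one received 10 mg/L BPQDs for 24 h and one received 100 mg/L TiO2 for 24 h, so the doses of the materials differed. Each group had 3 libraries of input RNA and 3 of RNA pulled down with an antibody against m6A, and both comparisons used the same untreated libraries. The labels do not say whether replicates are separate cultures. P-values for input RNA therefore measure the spread between these samples only. What spread the authors' peak p-values rest on is not known, since the use of replicates is not stated. Every peak value below is the authors', from their deposited tables, which give a fold change and a p per peak but no m6A value per library and no error. Input levels are the authors' FPKM values, fragments scaled to transcript length and library size, whose sums ranged from 212891 to 222818 per library. Read depth was not given there.

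The input libraries were checked against the label. Of 6 epithelial markers, the keratins KRT7, KRT8 and KRT18 were abundant, with means of 254, 275 and 489 FPKM over the 9 libraries. EPCAM had a mean of 2.52 FPKM, while the keratin KRT19 and the cadherin CDH1 had only 0.239 and 0.337 FPKM. Of 5 alveolar type II markers, SFTPB, SFTPC and NKX2-1 stayed at or below 0.144 FPKM in every library, while ABCA3 had a mean of 9.65 and LPCAT1 of 15.6 FPKM. Of 9 genes known for high levels in A549, 5 had means of at least 1 FPKM, while AKR1B10, AKR1C1 and ALDH1A1 peaked at 0.998, 1.14 and 0.116 FPKM. CDKN2A, which is known to be deleted in A549, had a mean of 21.5 FPKM and a range of 19.3 to 27.4. The cells are therefore called cells labelled A549 throughout. The 5 leukocyte markers all had means below 1 FPKM, and 3 of 7 fibroblast markers had more, with summed levels of 28.1 to 28.8 FPKM in untreated libraries, 13.1 to 24.1 under BPQDs and 26.2 to 35.7 under TiO2. The summed level of 6 epithelial markers was 1152 to 1239 FPKM in untreated libraries, 852 to 872 under BPQDs and 952 to 1047 under TiO2, and the part of either shift in the results was not tested. In bulk RNA, fewer cells of a type and less RNA per cell cannot be told apart.

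In mRNA, m6A is written mostly by the METTL3 and METTL14 complex at a DRACH motif, and most of it lies near the stop codon and in the 3' UTR. Methyl marks near the 5' end form a smaller class. They include internal m6A in the 5' UTR, which has been linked to translation without cap-binding factors through eIF3 and ABCF1 and to heat shock mRNAs, and m6Am, the methylated adenosine that PCIF1 makes at the first transcribed base. Antibodies against m6A also bind m6Am, so a peak at a transcript start can hold either mark.

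Short windows around a DRACH match near the start of 7 named genes are given as examples of the motif. The windows were read from RefSeq (GRCh38.p14) on the transcript strand. Only 1 RefSeq start was read per peak, the first listed, so other starts within a peak were not searched. The windows were picked among named genes that have a match at that start. Of 67 named genes with a RefSeq start inside their named peak, 25 had a match in the first 50 bases read and 42 had none there. UQCRH, EIF5A, CHD4 and SRSF6 had a 5' UTR peak with lower m6A after exposure, and FZR1, RBM15 and MET had one with higher m6A. In the order named, these peaks spanned 5609, 740, 5356, 210, 19567, 3892 and 27908 bases. SRSF6, RBM15 and MET are given for TiO2 and the others for BPQDs. A window is thus a small part of most of these regions. Capitals mark the match, whose central A lay 15, 9, 3, 14, 5, 36 and 3 bases from the start site in that order, with the start site as base 1.
UQCRH, chr1:46303700-46303724, plus strand: tcttgatcctGAACTgggttaggtg
EIF5A, chr17:7307628-7307648, plus strand: gtactaAGACCcgtgtgcagc
CHD4, chr12:6606437-6606451, minus strand: TGACTcgggccagtg
SRSF6, chr20:43457897-43457921, plus strand: ttgtgtggctGGACTcggccgcccc
FZR1, chr19:3522956-3522972, plus strand: gcTAACCttgccgcggg
RBM15, chr1:110339400-110339424, plus strand: tggccaatgaGGACTgcggggcggg
MET, chr7:116672196-116672210, plus strand: AGACAcgtgctgggg

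The motif searched was A, G or T, then A or G, then AC, then A, C or T, on the transcript strand only and with overlapping matches allowed, in the first 50 bases after each RefSeq start. Symbols of 2525 of the 3159 genes in the BPQD table and 2329 of the 2894 in the TiO2 table were found in RefSeq. A RefSeq start lay inside 1543 of the BPQD peaks (41.3%) and 1399 of the TiO2 peaks (41.1%). A match was present in 41.5% of these BPQD starts and 40.2% of these TiO2 starts, against 49.7% of all 34943 RefSeq starts. The narrower form GGAC followed by A, C or T was present in 16.5% and 14.9%, against 14.4% of all starts. The transcript began with A, the base that can carry m6Am, at 52.4% and 51.7% of the starts inside peaks and at 44.4% of all starts. Median GC content of the 50 bases was 66% for both sets of peaks and 60% for all starts. These shares are descriptions without a test, and a match is not a mapped methylated base. Peaks whose start was A had a median log2 fold change of -0.23 under BPQDs and 0.14 under TiO2, and peaks whose start was G had -0.24 and 0.15.

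Many of these peaks were far wider than a 5' UTR. Median width was 1316.5 bases in the BPQD table (quartiles 329 and 6400.5) and 1822 in the TiO2 table (quartiles 411 and 7781.75), against 647 and 746 for 3' UTR peaks and 451 and 481 for exon peaks. Widths count genomic bases from start to end, so introns are included. Among BPQD members 1712 peaks (45.8%) spanned at most 1000 bases and 695 (18.6%) more than 10000. Among TiO2 members these counts were 1337 (39.3%) and 732 (21.5%). The peak covered at least 50% of its gene in 539 cases (14.5% of those with a gene model) under BPQDs and 629 (18.6%) under TiO2. The distance to the transcript start was listed as 0 for 2981 BPQD peaks (79.8%) and 2747 TiO2 peaks (80.7%), and as more than 1000 bases for 453 and 400. Most genes had a single such peak, 2664 in the BPQD table and 2449 in the TiO2 table, while 62 and 52 genes had 3 or more. Because 735 BPQD members (19.7%) and 656 TiO2 members (19.3%) overlapped another member, and some share a gene, they are not independent of each other.

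The narrowest and widest members show this range. In the authors' deposited BPQD table the narrowest named peaks were in VAMP2, a vesicle fusion protein, at 58 bases, CNPY2 at 59 bases and CCT7, a chaperonin subunit, at 60 bases. In the TiO2 table they were RASSF1 and HOXA7, at 59 bases each, and PGAM1 of glycolysis at 60 bases. The widest named members were in RPA3, a subunit of replication protein A, at 330525 bases under BPQDs and 362244 under TiO2, in TFPI2, a serine protease inhibitor, at 315021 bases in both tables, in SLC35F3 at 308783 bases under BPQDs and in DSEL at 317849 bases under TiO2. A region of this size is not confined to a 5' UTR, and its fold change pools everything the authors joined into it.

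**Figure D1:**
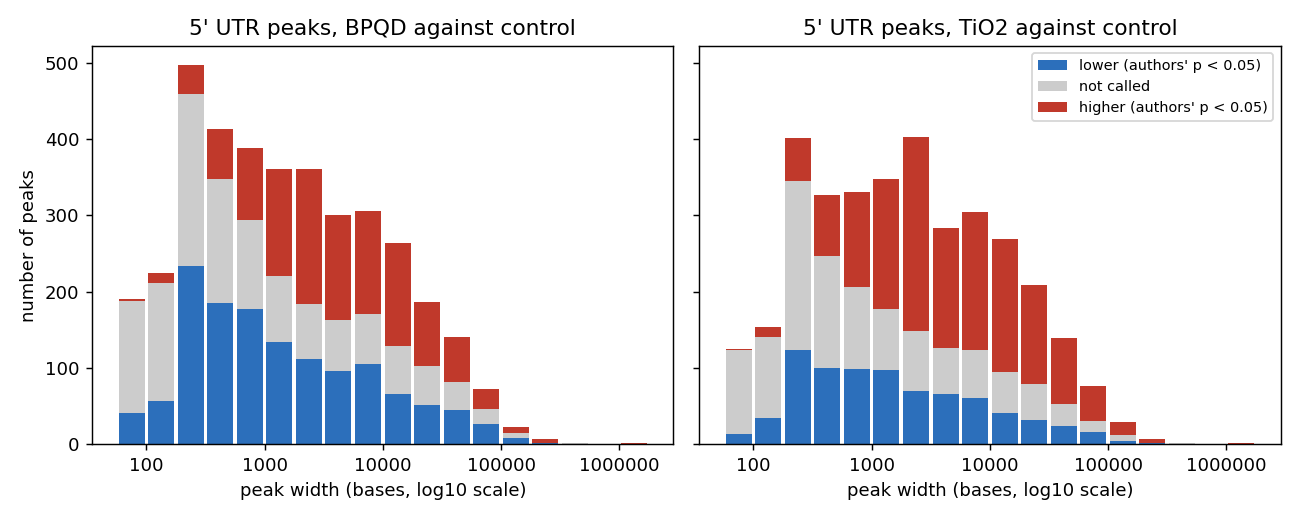
Number of 5' UTR peaks (vertical axis) by peak width in bases (horizontal log10 axis, bins of 0.25) in the BPQD and TiO2 tables, stacked as lower, not called and higher at the authors' p under 0.05. Lower calls make up most of the calls among narrow peaks, and higher calls most of those among wide peaks, with the table medians at 1316.5 and 1822 bases.

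A peak was called where the authors' p was under 0.05. Some calls named below do not reach the authors' FDR under 0.05. Under BPQDs, m6A was more often lower than higher at 5' UTR peaks, while over the whole table it was more often higher. Of the 3734 members, 2459 (65.9%) were called, against 64.8% of all 14903 peaks. Higher calls numbered 1121 (30.02%, against 37.7% of all peaks) and lower calls 1338 (35.8%, against 27.1%). Higher calls were thus 45.6% of the calls at the 5' UTR, against 60.7% at the 3' UTR and 66.0% in exons. The median log2 fold change was -0.17 over the members (quartiles -0.42 and 0.30) and 0.16 over all peaks. The balance turned among calls with an absolute log2 fold change of at least 1, of which 130 were higher and 99 lower.

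Under TiO2, m6A was more often higher than lower at 5' UTR peaks, as in the rest of that table. Of the 3406 members, 2277 (66.9%) were called, against 64.1% of all 12891 peaks. Higher calls numbered 1496 (43.9%, against 40.3% of all peaks) and lower calls 781 (22.9%, against 23.8%). Higher calls were 65.7% of the calls at the 5' UTR and 61.8% elsewhere. The median log2 fold change was 0.17 over the members (quartiles -0.26 and 0.35) and 0.15 over all peaks, and it turned to -0.16 over the 1337 members of at most 1000 bases, of which 275 were higher and 370 lower. The difference between the materials was not tested, since the authors' tables give no m6A value per library. The changes were mostly small: 558 BPQD members (14.9%) and 381 TiO2 members (11.2%) had an absolute log2 fold change of at least 1, against 22.3% and 16.0% of all peaks.

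The direction of the calls moved with width. Under BPQDs, among peaks of up to 250 bases 38 members were higher and 251 lower, so that higher calls were 13.1% of the calls. That share was 21.3% up to 500 bases, 34.7% up to 1000, 55.8% up to 3000, 58.1% up to 10000 and 61.6% above. In the same bins the share for 3' UTR and exon peaks ran from 46.9% to 71.9%. Under TiO2 the share at the 5' UTR went from 28.0% (49 higher and 126 lower) through 38.3%, 56.3%, 71.5% and 73.0% to 79.5%, and the shares for the other peaks lay close to it, from 29.4% to 82.6%. The share at the 5' UTR was below that of the other peaks in every width bin in both tables. The gap was wider for BPQD peaks of up to 1000 bases than for wider ones, and small throughout under TiO2. Wider peaks span more sequence, and the part of width in these calls was not tested.

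The direction also moved with the input level of the gene. Genes with a 5' UTR peak had a median of 5.40 FPKM in the BPQD table and 5.07 in the TiO2 table, against 4.17 and 4.12 for genes with a 3' UTR peak and 1.43 and 1.45 for those with an exon peak. Under BPQDs, higher calls were 58.7% of the calls in genes below 1 FPKM and went down with each bin from 3 FPKM upward to 6.76% in genes of 100 FPKM or more, where 5 peaks were higher and 69 lower. Under TiO2 the share was 70.9% below 1 FPKM and 21.7% at 100 FPKM or more, where 13 were higher and 47 lower. The other peaks moved the same way, with shares of 71.5% below 1 FPKM and 27.7% at 100 FPKM or more under BPQDs and 70.3% and 24.1% under TiO2. Under BPQDs the 5' UTR share was below theirs in every bin. Under TiO2 it was above theirs in every bin below 100 FPKM, such as 73.6% against 62.4% from 3 to below 10 FPKM. Both patterns held together: among BPQD peaks of at most 1000 bases, higher calls were 33.7% of the calls in genes below 10 FPKM and 12.7% in genes above, and among wider peaks they were 65.4% and 44.1%. The corresponding TiO2 shares were 52.8% and 30.6% for narrow peaks and 80.6% and 61.6% for wide ones.

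**Figure D2:**
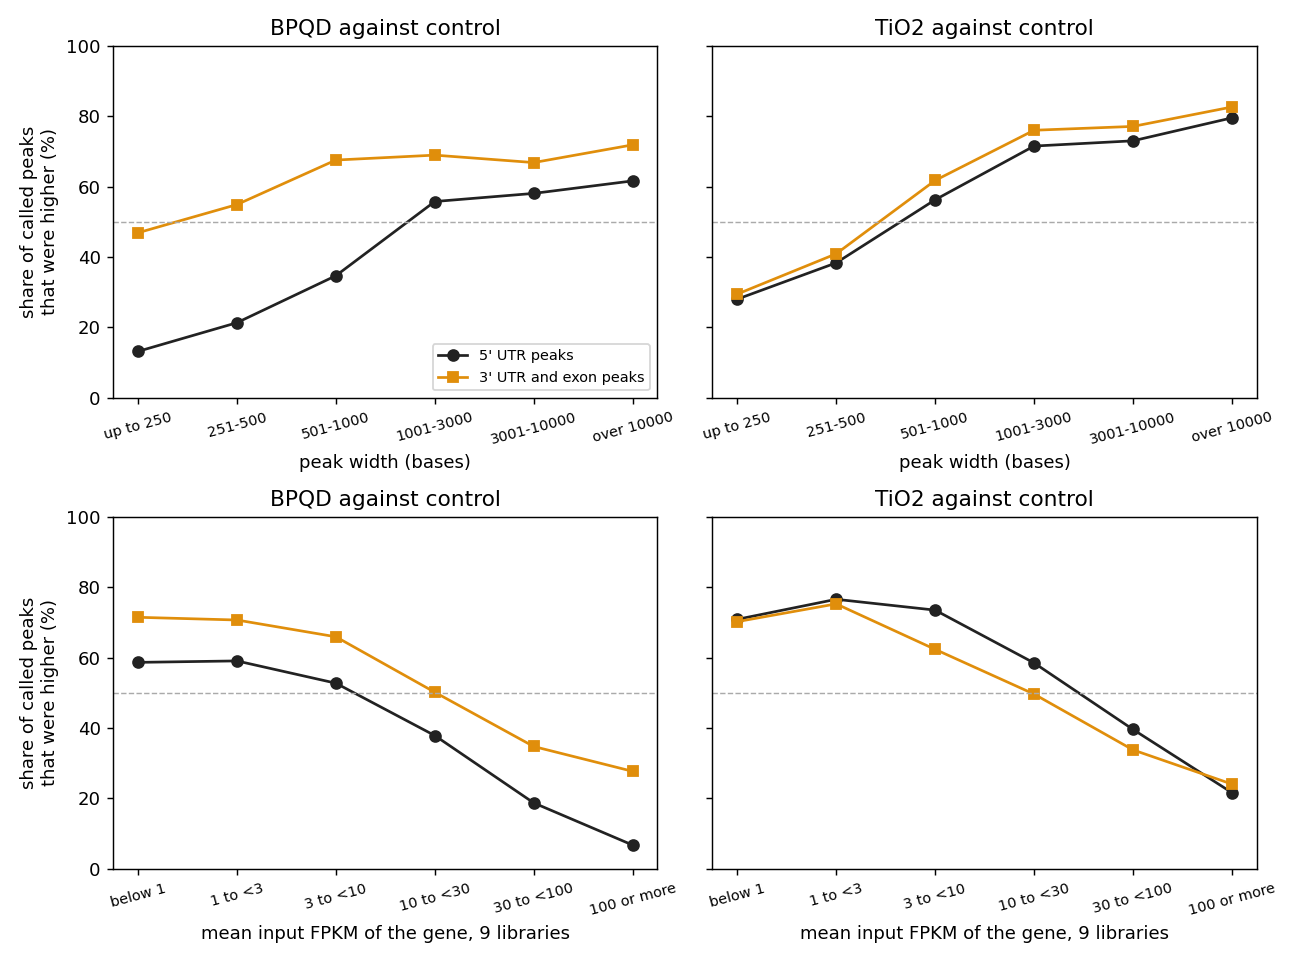
Share of called peaks that were higher than in untreated cells (vertical axis, percent) by peak width in bases (upper panels) and by mean input FPKM of the gene over 9 libraries (lower panels), for 5' UTR peaks (circles) and for 3' UTR and exon peaks (squares); the dashed line is 50%. At the 5' UTR the share rises with width from 13.1% to 61.6% under BPQDs and from 28.0% to 79.5% under TiO2, and it is 6.76% and 21.7% in genes of 100 FPKM or more.

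Some genes were listed with a narrow and a wide member that went opposite ways. DERL2, which helps to move misfolded proteins out of the endoplasmic reticulum, had a peak of 737 bases at its start that was lower under BPQDs (log2 fold change -0.22, the authors' p = 0.0316) and an overlapping peak of 3398 bases that was higher (0.46, p = 1.26e-34). In the deposited TiO2 table its narrow peak was at -0.24 (the authors' p = 0.0162) and its wide peak at 0.54 (p = 1.26e-50). DERL2 lies on the minus strand. In both tables the narrow peak ended at base 5486811 and the wide one at 5489712, so the wide region ran further upstream. Whether that stretch belongs to another gene was not checked. The narrow peaks did not reach the authors' FDR under 0.05, with a log10 FDR of -0.903 under BPQDs and -1.06 under TiO2. Such genes were a minority. Over the 198 genes with both kinds of member in the BPQD table, the wide peaks had the higher median fold change in 114 (57.6%). Among the 94 with calls of both kinds, the narrow peaks were lower and the wide ones higher in 21 genes, and the reverse held in 4. In the TiO2 table the wide peaks had the higher median in 88 of 167 genes (52.7%), and the counts of opposite calls were 13 and 5 of 76.

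The lower peaks with the smallest p lay mostly in highly expressed genes, among them genes of respiration and the cytoskeleton. Among these lower peaks EIF3C had the smallest p in both tables, and it is described with the genes that have close copies. In the authors' deposited BPQD table, NDUFS5 of respiratory complex I was at -0.36 (p = 1e-116) and UQCRH of complex III at -0.35 (p = 1e-101). TPM2, a tropomyosin, was at -0.30 (the authors' p = 1e-120) and MLF2 at -0.22 (p = 5.01e-95). FTH1, the ferritin heavy chain, was at -0.19 (the authors' p = 1e-155) and had the highest input level of all named genes, with a mean of 2861 FPKM, but it has processed pseudogenes that can share its reads. In the deposited TiO2 table NDUFS5 was at -0.20 (the authors' p = 7.94e-49), TPM2 at -0.22 (p = 7.94e-78), EDF1, a coactivator that also binds stalled ribosomes, at -0.24 (p = 1.58e-58) and the histone chaperone SET at -0.28 (p = 5.01e-31). A region annotated to MRNIP, a DNA repair factor with a mean of 3.16 FPKM, was at -0.71 (the authors' p = 2e-40) under TiO2. It was listed at 20782 bases from the start. Gene names of peaks are the authors' annotation, and whether a region overlaps another gene was not checked.

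The higher peaks with the smallest p were mostly in genes of lower level. In the deposited BPQD table XRCC3, a recombination repair protein, was at 1.02 (the authors' p = 1.58e-64), UCKL1, a uridine kinase-like enzyme, at 1.59 (p = 1e-38) and FZR1, an activator of the anaphase-promoting complex, at 1.91 (p = 1e-37). SARS, the seryl-tRNA synthetase, was at 0.58 (the authors' p = 5.01e-57) and the zinc finger gene ZNF770 at 0.46 (p = 7.94e-36). In the deposited TiO2 table the smallest p among higher peaks was that of MYC, at 0.29 (the authors' p = 1e-126), in a region of 3144 bases listed at 2876 bases from the transcript start. MGAT2, a Golgi glycosyltransferase, was at 0.40 (the authors' p = 1e-54) in 2 overlapping entries. Input MYC varied widely within groups, at 1.65, 33.0 and 28.7 FPKM in untreated libraries, 2.04, 34.7 and 2.32 under BPQDs and 1.62, 1.73 and 26.4 under TiO2. High and low MYC values occurred in every group and the groups overlapped fully.

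Several of the largest fold changes lay in genes with near-identical copies, where the assignment of reads is uncertain. The peak of MSTO1 was at 5.15 under BPQDs (the authors' p = 3.98e-44) and 4.62 under TiO2 (p = 3.16e-57) in the deposited tables. EIF3C, a subunit of the initiation factor eIF3 with a close copy in the genome, was at -2.42 under BPQDs, with its p listed as 0, and at -1.44 (the authors' p = 1e-112) and -3.71 (p = 3.98e-24) under TiO2. SERF1A under BPQDs (-9.05), SERF1B under TiO2 (4.71) and NOMO3 under TiO2 (7.23) were named after their values had been seen. Input RNA of MSTO1 was 5.66, 7.07 and 5.08 FPKM in untreated libraries, 5.47, 5.48 and 6.38 under BPQDs and 4.84, 4.69 and 5.12 under TiO2. The 3 BPQD values lay within the untreated range, and MSTO1 passed the test of input RNA under neither material (limma adjusted p = 0.859 and 0.126).

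Gene groups are described by their counts beside the table-wide shares of 37.7% higher and 27.1% lower under BPQDs and 40.3% and 23.8% under TiO2. Over all 5' UTR peaks these shares were 30.02% and 35.8% under BPQDs and 43.9% and 22.9% under TiO2. Lower calls were 67.0% of BPQD 5' UTR peaks from 30 to below 100 FPKM and 79.3% at 100 FPKM or more. Under TiO2 they were 45.3% and 68.1%. Named genes such as EIF5A (209 FPKM) and HSP90AA1 (542 FPKM) lay at such levels. The part of input level in the list counts was not tested. Genes of translation initiation had 10 members in the BPQD table, of which 7 were lower and none of 10 higher, and 6 in the TiO2 table, of which 4 were lower and none of 6 higher. Peaks of the same list elsewhere, at the 3' UTR or in exons, were 8 higher and 8 lower of 18 under BPQDs. Under TiO2 they were 3 higher and 10 lower of 15. EIF5A, which helps ribosomes through difficult peptide bonds, was at -0.27 (the authors' p = 7.94e-17) and EIF2S2, the beta subunit of eIF2, at -0.28 (p = 6.31e-14) under BPQDs. EIF2S2 was at -0.15 (the authors' p = 1.48e-05) under TiO2. Input EIF2S2 was 94.6, 93.8 and 93.1 FPKM in untreated libraries, 119, 121 and 122 under BPQDs and 135, 135 and 130 under TiO2. Its RNA was higher in all treated libraries, by 0.36 ± 0.02 (SE) on the log2(FPKM + 1) scale under BPQDs (limma adjusted p = 1.75e-05) and 0.51 ± 0.02 under TiO2 (adjusted p = 5.43e-06), while its 5' UTR peak was lower.

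SR and hnRNP proteins, which direct splicing, had 18 members under BPQDs, 15 lower and 2 higher, and 12 under TiO2, 8 lower and 4 higher. The lean was shared by 3' UTR and exon peaks of this list, 15 lower and 6 higher of 23 under BPQDs and 9 lower and 2 higher of 13 under TiO2. In the deposited BPQD table HNRNPM was at -0.29 (the authors' p = 1.26e-32), HNRNPD at -0.23 (p = 6.31e-19) and HNRNPAB at -0.30 (p = 1.58e-17). HNRNPH2 was among the exceptions, at 0.20 (the authors' p = 1.7e-10) under BPQDs and 0.23 (p = 1.58e-13) under TiO2, in a region listed at 3757 bases from the start. SRSF6, whose start-site window is shown above, was at -0.63 under BPQDs (the authors' p = 2.29e-08) and -0.51 under TiO2 (p = 1.45e-06) in a peak of 210 bases. Input SRSF6 was 43.8 to 45.9 FPKM in untreated libraries, 43.1 to 44.2 under BPQDs and 44.9 to 46.2 under TiO2. It passed the test under neither material (limma adjusted p = 0.201 and 0.797).

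Heat shock genes had few members, all called lower, 2 of 2 under BPQDs and 4 of 4 under TiO2. Their other peaks were 4 higher and 5 lower of 9 under BPQDs and 3 higher and 4 lower of 7 under TiO2. HSP90AA1, a cytosolic chaperone, was at -0.25 (p = 5.01e-30) and -0.12 (p = 7.08e-09) in the authors' deposited BPQD and TiO2 tables. HSPA1B, an inducible Hsp70 gene with a near-identical neighbour, was at -0.33 (the authors' p = 3.98e-17) and -0.13 (p = 0.000224). Endocytosis genes had 5 lower and 1 higher of 6 under BPQDs and 5 lower and 3 higher of 9 under TiO2, against 5 lower and 7 higher of 20 and 4 lower and 5 higher of 16 among their other peaks. CAVIN1, a coat protein of caveolae, was at -0.26 (the authors' p = 5.13e-05) and -0.31 (p = 5.01e-08). CLTC, the clathrin heavy chain, was at 0.23 (the authors' p = 5.01e-13) in the deposited TiO2 table.

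Members in kinase signalling genes showed no lower call in either table, with 5 higher of 13 under BPQDs and 3 higher of 11 under TiO2. Their other peaks were 22 higher and 7 lower of 43 under BPQDs and 10 higher and 6 lower of 26 under TiO2. The named peaks of EGFR and MET were wide: that of EGFR spanned 66003 bases and was at 1.43 (the authors' p = 7.59e-10) in the deposited BPQD table, and that of the receptor gene MET spanned 27639 bases and was at 0.16 (p = 1.51e-08). Under TiO2 the MET peak was at 0.17 (the authors' p = 1.02e-08). Immediate early genes, which respond quickly to stimuli, had 5 higher and 1 lower of 10 under BPQDs and 6 higher of 6 under TiO2. Among their other peaks none was lower, and 3 of 6 were higher under BPQDs and 3 of 4 under TiO2. IER3 was at 0.17 (the authors' p = 1.62e-07) under BPQDs and 0.12 (p = 2.82e-06) under TiO2. Its input RNA was 27.7, 29.3 and 30.2 FPKM in untreated libraries, 19.2, 20.2 and 21.2 under BPQDs and 46.4, 48.1 and 46.3 under TiO2. The RNA was thus lower in every BPQD library (log2 change -0.51 ± 0.04, limma adjusted p = 9.37e-05) and higher in every TiO2 library (0.67 ± 0.04, adjusted p = 3.85e-05), while its peak was called higher in both tables.

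**Figure D3:**
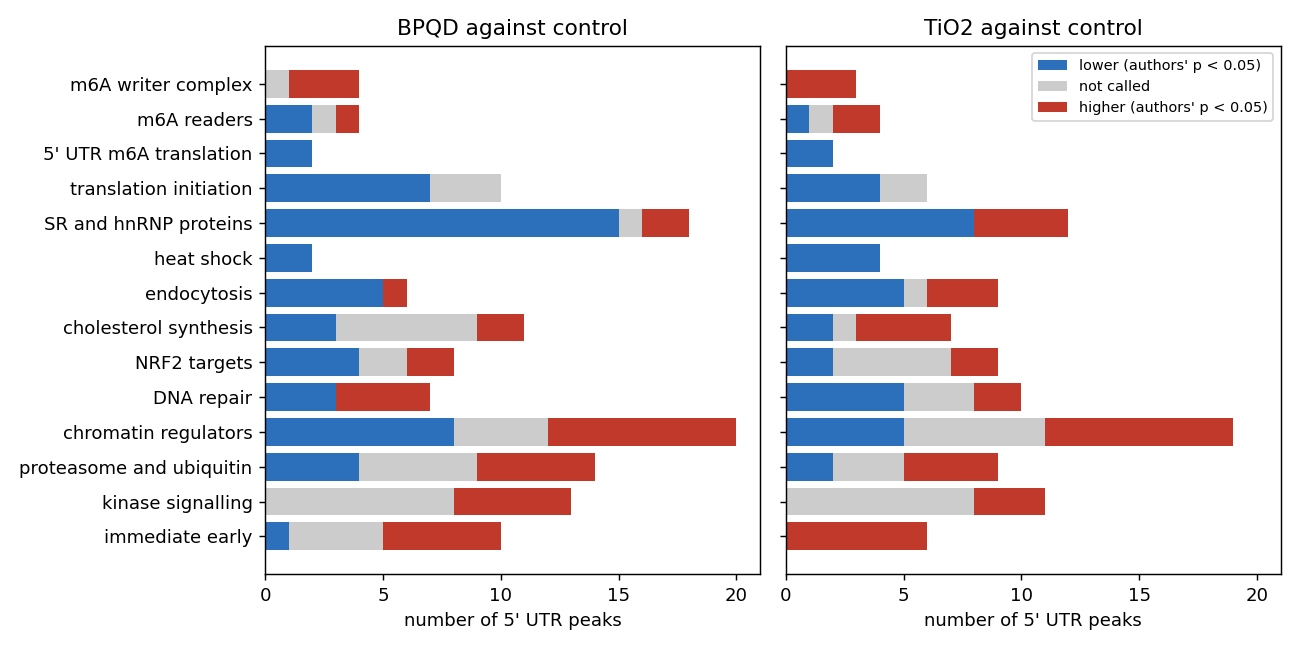
Number of 5' UTR peaks (horizontal axis) in 14 gene lists that were lower, not called or higher at the authors' p under 0.05, for BPQDs and TiO2 against control. Translation initiation (7 and 4 lower, none higher of 10 and 6) and SR and hnRNP proteins (15 and 8 lower) lie to the lower side, and immediate early genes (5 and 6 higher) to the higher side.

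Other lists were mixed. Chromatin regulators had 8 higher and 8 lower of 20 under BPQDs and 8 higher and 5 lower of 19 under TiO2. The remodeller CHD4 was at -0.32 (the authors' p = 2.51e-15) and -0.17 (p = 2e-05) in the same region, and KMT2A, a histone methyltransferase, was at 0.33 (p = 1.23e-05) under BPQDs. DNA repair genes had 4 higher and 3 lower of 7 and 2 higher and 5 lower of 10. PARP1, a sensor of DNA breaks, was at -0.44 (the authors' p = 1.62e-07) and -0.28 (p = 0.00055), and XRCC2, a recombination protein, at 0.23 (p = 5.01e-18) and 0.23 (p = 1.26e-16). Targets of NRF2, the regulator of antioxidant genes, had 2 higher and 4 lower of 8 and 2 higher and 2 lower of 9. Among them NQO1 was at -0.34 (the authors' p = 8.13e-05) and -0.26 (p = 0.000977), HMOX1 at -0.53 (p = 0.0158) and -0.37 (p = 0.0302), and SRXN1 at 0.19 (p = 7.94e-14) and 0.11 (p = 1.2e-05). Genes of the proteasome and ubiquitin pathway had 5 higher and 4 lower of 14 and 4 higher and 2 lower of 9, p53 targets 2 lower of 7 and 2 higher and 3 lower of 6, and ER stress genes 2 lower of 3 in each table.

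Genes of cholesterol synthesis had 2 higher and 3 lower of 11 under BPQDs and 4 higher and 2 lower of 7 under TiO2. CYP51A1, the lanosterol demethylase, was at 1.99 (the authors' p = 0.00589) under BPQDs in a peak of 4074 bases and at 1.80 (p = 0.00708) under TiO2 in a peak of 419 bases. FDPS, which makes farnesyl diphosphate, was at -0.23 (the authors' p = 4.17e-07) under BPQDs. Input CYP51A1 was 13.8, 14.7 and 13.8 FPKM in untreated libraries, 17.2, 16.7 and 16.5 under BPQDs and 26.3, 28.3 and 27.1 under TiO2. Every treated library was above every untreated one, and the rise was 0.24 ± 0.04 under BPQDs (limma adjusted p = 0.00151) and 0.90 ± 0.04 under TiO2 (adjusted p = 5.39e-06).

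Genes of the m6A machinery carried 5' UTR peaks themselves. In the writer complex RBM15 was at 0.20 (the authors' p = 8.32e-09) and 0.27 (p = 1.26e-13), its paralog RBM15B at 0.13 (p = 7.94e-11) and 0.08 (p = 8.91e-05), and METTL3 at 0.64 (p = 0.000309) and 0.62 (p = 0.000479) in the deposited BPQD and TiO2 tables. WTAP, the adaptor of the complex, was at -0.29 under BPQDs and did not pass (the authors' p = 0.0501). Readers had 1 higher and 2 lower of 4 under BPQDs and 2 higher and 1 lower of 4 under TiO2. Among them, YTHDF2 was at 0.12 (the authors' p = 3.39e-09) and 0.23 (p = 1.26e-26), and YTHDC1, the nuclear reader, at -0.23 (p = 0.00135) under BPQDs. YTHDF3, a cytoplasmic reader, was lower under BPQDs in a peak of 933 bases (-0.52, the authors' p = 3.8e-06) and higher under TiO2 in a peak of 13230 bases (0.21, p = 1.45e-09). The demethylase ALKBH5 was at -0.26 (the authors' p = 0.00708) under BPQDs, and FTO, which also removes m6Am, at -0.33 (p = 0.0115) under TiO2. An overlapping ALKBH5 peak of 1634 bases was not called in either table. It was at -0.10 (the authors' p = 0.0676) under BPQDs and 0.10 (p = 0.0646) under TiO2. Both members in genes of m6A translation at the 5' UTR were lower in each table: ABCF1 at -0.17 (the authors' p = 6.92e-05) and -0.14 (p = 0.000417), and EIF3B at -0.45 (p = 0.000102) and -0.34 (p = 0.00141).

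The RNA of these genes was then compared in the input libraries, by limma on log2(FPKM + 1) over the 12224 genes whose 9 libraries averaged 1 FPKM or more. Changes on this scale understate those of genes at low levels. Over all genes tested, 44% were called under BPQDs (20.6% higher, 23.4% lower) and 37.7% under TiO2 (17.3% higher, 20.5% lower). Of the 32 m6A and cap genes, 19 were higher and 3 lower under BPQDs (median 0.20), and 8 were higher and 6 lower under TiO2 (median 0.07). Without untreated replicate 1, untreated replicate 2 or TiO2 replicate 1, or with the replicate block, the TiO2 count was 5 higher and 6 lower. PCIF1, the m6Am methyltransferase, fell from 13.3, 13.1 and 13.9 FPKM to 9.57, 8.81 and 9.21 under BPQDs and 10.8, 11.0 and 11.4 under TiO2. Both treated groups lay below all untreated libraries, with log2 changes of -0.50 ± 0.04 (limma adjusted p = 5.11e-05) and -0.26 ± 0.04 (adjusted p = 0.00146). ALKBH5 fell from 32.8, 32.8 and 34.9 FPKM to 28.5, 29.1 and 28.6 under BPQDs and 28.7, 29.0 and 29.7 under TiO2, by -0.21 ± 0.03 (adjusted p = 0.000846) and -0.19 ± 0.03 (adjusted p = 0.0017). METTL14 was 1.56, 1.54 and 1.59 FPKM in untreated libraries, 2.39, 3.18 and 2.73 under BPQDs and 1.91, 2.66 and 1.87 under TiO2, a rise of 0.55 ± 0.11 under BPQDs (adjusted p = 0.00472) that did not pass under TiO2 (0.29 ± 0.11, adjusted p = 0.074). METTL3 changed by 0.21 ± 0.06 under BPQDs (adjusted p = 0.0168), with the call lost without untreated replicate 1 (0.20, adjusted p = 0.0508) or without BPQD replicate 2 (0.19, adjusted p = 0.0545). FTO passed under neither material (adjusted p = 0.903 and 0.418).

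**Figure D4:**
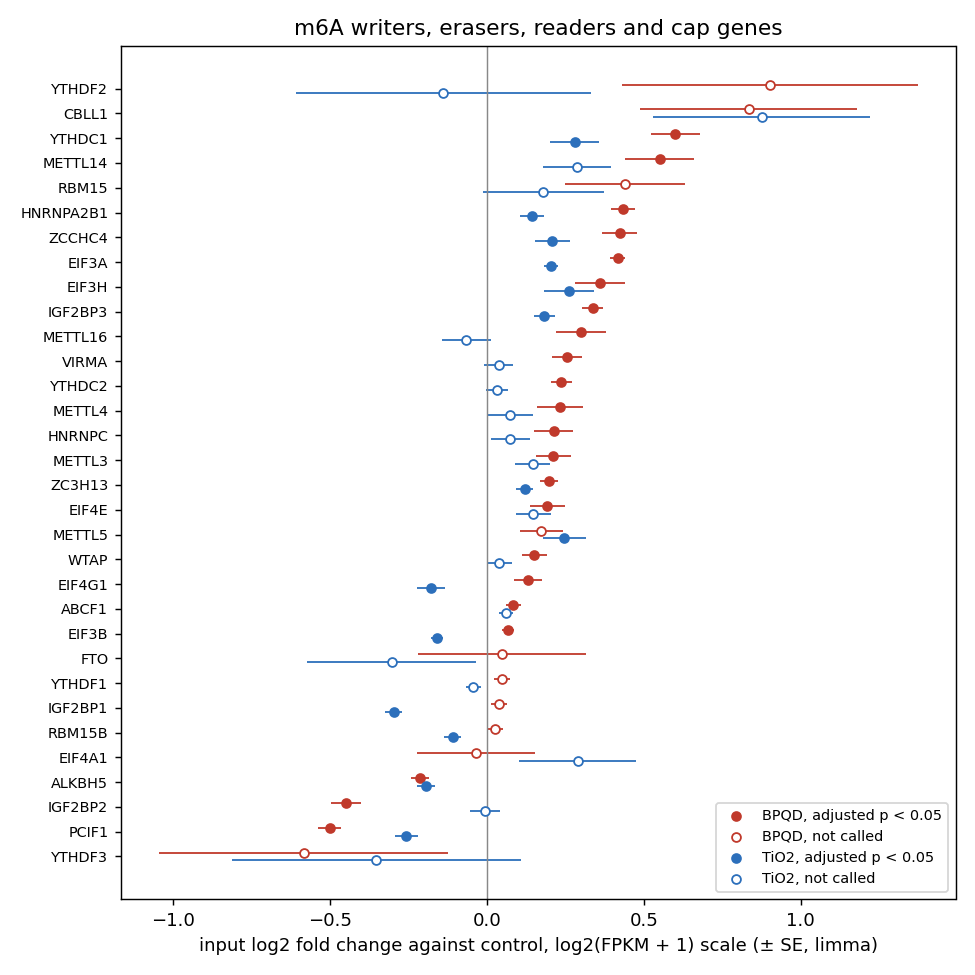
Log2 change of input RNA against control on the log2(FPKM + 1) scale (horizontal axis, points with limma SE) for the 32 m6A and cap genes, for BPQDs (red) and TiO2 (blue); filled points have adjusted p under 0.05. Under BPQDs 19 genes are called to the right of 0 and 3, namely ALKBH5, IGF2BP2 and PCIF1, to the left.

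Genes with a 5' UTR peak changed in input RNA about as often as all genes tested. For BPQDs 2609 of the 3159 genes passed the level filter, and 1241 (47.6%) were called, 560 higher (21.5%) and 681 lower (26.1%). Rescaled to TPM, the split was 700 higher and 543 lower, so the balance of directions depends on the scaling. For TiO2 2402 of 2894 genes passed and 949 (39.5%) were called, 424 higher (17.7%) and 525 lower (21.9%). Genes whose peak was higher under BPQDs had a median input change of 0.02 and those whose peak was lower had -0.04. Under TiO2 these medians were -0.01 and -0.03. Across genes, with 1 peak per gene, the peak's fold change and the gene's input change had r = 0.05 and rho = 0.08 under BPQDs (2609 genes), and r = 0.03 and rho = 0.04 under TiO2 (2402 genes). Both values of a gene rest on the same input libraries, so these correlations are descriptions only.

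The largest changes of input RNA among these genes went with peaks of either direction. Under BPQDs HOXC8, a homeobox transcription factor, was 2.72, 2.34 and 2.30 FPKM in untreated libraries and 7.27, 7.46 and 7.57 after exposure, with no overlap (1.29 ± 0.05, limma adjusted p = 5.67e-06). Its peak, a region of 48566 bases, was at -0.22 (the authors' p = 0.00339). TIMM10B, a mitochondrial import factor, went from 5.11, 9.87 and 6.37 to 14.8, 14.5 and 13.8 FPKM (0.96 ± 0.24, adjusted p = 0.0132), and its peak of 970 bases was at -0.30 (the authors' p = 3.89e-06). EEF1AKMT3, a lysine methyltransferase of an elongation factor, went from 0.653, 0.442 and 0.64 to 2.64, 2.70 and 1.42 FPKM (1.02 ± 0.17, adjusted p = 0.00242), with its peak at -0.57 (the authors' p = 0.000851). AC006111, a gene known by a clone name, went from 0.828, 0.767 and 0.425 to 3.70, 3.56 and 3.53 FPKM (1.47 ± 0.09, limma adjusted p = 2.15e-05), and its peak was higher (1.02, the authors' p = 1e-09). EEF1AKMT3 and AC006111 were below 1 FPKM in all untreated libraries and passed the level filter through the BPQD libraries, so their rises are descriptions and their p-values no support. RAB40C, a RAB-family GTPase, fell from 5.01, 3.93 and 4.37 to 0.796, 0.994 and 1.43 FPKM (-1.40 ± 0.30, adjusted p = 0.00692), and AK1, an adenylate kinase, from 19.6, 19.6 and 18.5 to 7.67, 11.4 and 6.08 (-1.15 ± 0.28, adjusted p = 0.0118). The peaks of both were lower as well, at -0.53 (the authors' p = 0.0468) and -0.54 (p = 0.000282). GPX1, a glutathione peroxidase, fell from 83.9, 80.2 and 79.4 to between 28.6 and 44.0 FPKM (-1.25 ± 0.35, limma adjusted p = 0.0228), with its peak lower at -0.32 (the authors' p = 5.62e-05). The GPX1 call was lost without any 1 untreated library or without BPQD replicate 1 or 2 (adjusted p = 0.0551 to 0.0702). JUND, an AP-1 transcription factor, fell from 21.3, 18.1 and 21.3 to 4.65, 13.3 and 13.5 FPKM (-1.01 ± 0.33, limma adjusted p = 0.0413), a call that was lost after rescaling to TPM and without any 1 untreated or TiO2 library (adjusted p = 0.0594 to 0.099 without a library). Its peak did not pass (0.05, the authors' p = 0.0741).

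Large rises under TiO2 were in HMGCS1 and IDI1 of the mevalonate pathway and in IFIT3, an interferon-induced gene. HMGCS1 went from 13.6, 13.1 and 13.1 to 35.3, 33.1 and 36.1 FPKM (1.33 ± 0.06, limma adjusted p = 6.17e-06), and its peak of 480 bases, listed at 14438 bases from the start, was at -0.10 (the authors' p = 0.0141). IDI1 went from 4.41, 4.34 and 4.48 to 9.92, 13.9 and 10.2 FPKM (1.18 ± 0.14, adjusted p = 0.000621), and its peak was higher too (0.98, the authors' p = 0.012). IFIT3 went from 4.74, 5.12 and 4.42 to 11.2, 11.2 and 11.6 FPKM (1.10 ± 0.07, adjusted p = 3.74e-05), with its peak lower (-0.26, the authors' p = 2.29e-07). In each of these 3 genes all TiO2 libraries lay above all untreated ones. LENG8 fell from 21.8, 22.1 and 21.9 to 8.27, 14.1 and 9.55 FPKM (-1.01 ± 0.22, adjusted p = 0.00882), and its peak was higher (0.26, the authors' p = 0.000646). SAMD11 fell from 4.40, 3.46 and 4.29 to 1.66, 1.53 and 1.56 FPKM (-0.96 ± 0.08, adjusted p = 9.72e-05), and its peak did not pass (0.63, the authors' p = 0.0724). RAB40C was lower under TiO2 too, at 1.12, 0.988 and 3.53 FPKM (-1.02 ± 0.30, limma adjusted p = 0.0306), with its peak at -0.59 (the authors' p = 0.0209). That RAB40C call was lost without any 1 untreated library or without TiO2 replicate 1 or 2 (adjusted p = 0.0583 to 0.0933). AC073896, also known by a clone name, was 4.54, 2.04 and 1.87 FPKM in untreated libraries and above 0 in TiO2 replicate 2, and was listed at 0 in the other two TiO2 libraries. Its change (-1.46 ± 0.41, limma adjusted p = 0.0245) was not called without untreated replicate 1 or TiO2 replicate 1 or 3 (adjusted p = 0.072 to 0.0766), and its peak with the smallest p was at -0.19 (the authors' p = 0.00049).

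**Figure D5:**
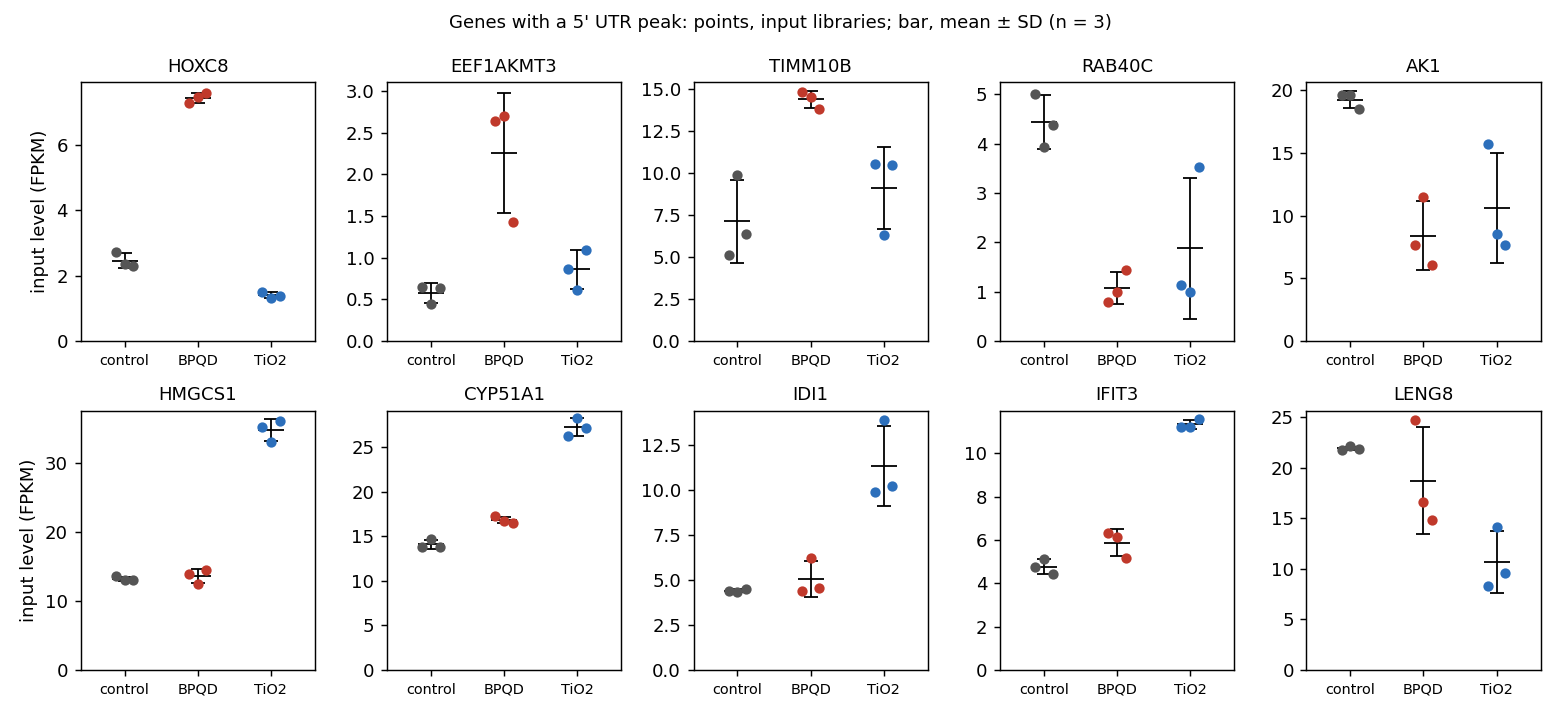
Input level in FPKM (vertical axis, linear from 0) of 10 genes with a 5' UTR peak in the 9 input libraries, by group; points are libraries, horizontal bars are means and error bars are SD (n = 3 per group). HOXC8, EEF1AKMT3 and TIMM10B are highest in the BPQD libraries, HMGCS1, CYP51A1, IDI1 and IFIT3 in the TiO2 libraries, and RAB40C, AK1 and LENG8 are lowest in a treated group.

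The named genes with the highest input levels, FTH1, RPL8, NDUFS5 and NPM1, had lower or uncalled peaks. FTH1 was 2972, 1538 and 2518 FPKM in untreated libraries, 2361, 2369 and 2346 under BPQDs and 3867, 3857 and 3925 under TiO2. It did not pass under BPQDs (0.06 ± 0.21, limma adjusted p = 0.831), but without untreated replicate 2 it was called lower (-0.21, adjusted p = 0.0334). Under TiO2 its RNA was higher in every library (0.78 ± 0.21, limma adjusted p = 0.0206), a call that was lost without any 1 TiO2 library (adjusted p = 0.052 to 0.0551) and under quantile normalization (0.46, adjusted p = 0.145). RPL8, a ribosomal protein, had its peak of 151 bases at -0.36 (the authors' p = 0.000417) and -0.27 (p = 0.00398) in the deposited tables. NPM1, the nucleolar protein nucleophosmin, was 421 to 496 FPKM in untreated libraries and rose under TiO2 to 601 to 620 (0.41 ± 0.06, limma adjusted p = 0.00106). Its peak was at -0.74 under TiO2 and not called (the authors' p = 0.125). NDUFS5, at 567, 579 and 588 FPKM in untreated libraries and 528, 517 and 525 under BPQDs, fell by 0.14 ± 0.02 on the log2 scale (adjusted p = 0.000563), a call that was lost under quantile normalization (-0.02, adjusted p = 0.515).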

How the data were processed

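Peak regions, the log2 fold change of m6A, its p-value and a score (log10 of the FDR) were the authors', as deposited, in 1 table for each material against control. No source used here names the peak caller, the use of replicates or any pooling. FPKM values of 9 input libraries were the authors' too; HISAT2 and StringTie 1.3.0 stand in the submitters' processing notes, which list mm10, although the deposited gene models are human: 97.9% of 24557 matched symbols had a start or end within 1000 bases of RefSeq GRCh38.p14. The 12 per-sample FPKM columns held by the 2 deposited tables of differential peaks were not used. Peaks were counted, binned by width and joined to genes. Input RNA was tested two-sided with limma 3.58.1 (R 4.3.3, trend) on log2(FPKM + 1) over 12224 genes averaging at least 1 FPKM, all 9 libraries in 1 fit, Benjamini-Hochberg adjusted. Called means adjusted p under 0.05, or the authors' p under 0.05 for peaks. On simulated data the fit recovered 78% (BPQDs) and 64% (TiO2) of genes changed by 0.5, 90% and 91% of those changed by 1, and called 6 others in each.

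Members and lists were chosen with earlier results of these data known. Named genes averaged at least 1 FPKM. Per table they were the 6 higher and 6 lower peaks of smallest p, the 3 narrowest and 3 widest, and the 3 with the highest input level. Up to 8 in both tables, up to 4 per list, and the 4 largest rises and falls of input RNA were named too. SERF1A, SERF1B and NOMO3 were added after their values were seen. The rule names DERL2, but its use as the example of opposite peaks was chosen after its values were seen. Some genes this rule names are not reported here. Same-numbered libraries did not deviate together (r from -0.083 to 0.073), so numbers do not pair them. Python 3.11.15, pandas 2.3.3 and matplotlib 3.10.9 were used.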

Additional observations from a re-analysis of the deposited data

How the results depend on the processing

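Peak calls depended on the rule. With an absolute log2 fold change of at least 1 also required, 229 BPQD (130 higher, 99 lower, the reverse of the balance without it) and 141 TiO2 members (74 higher, 67 lower) were called, and with the authors' FDR under 0.05 the TiO2 count was 1474 (1062 higher, 412 lower). Among members of at most 1000 bases 906 and 645 were called, with median log2 fold changes of -0.32 and -0.16, the latter of opposite sign to that of all TiO2 members. Rescaling to TPM put the median input level of the genes at 24.7 and 23.2. Without the level filter, 9 m6A and cap genes were called under TiO2 instead of 14. Under quantile normalization the changes of CCT7 and EDF1 under TiO2 turned from -0.06 and -0.10 to 0.015 and 0.016. Leaving out 1 library gave 1101 to 1230 called genes with a BPQD peak, 775 to 932 with a TiO2 peak, and 16 to 24 and 11 to 14 m6A and cap genes. With a replicate block the genes called were 1161 and 868, although the numbers do not pair the libraries. The causes were not tested. Chosen after seeing the data, leaving out overlapping members gave 871 higher and 1047 lower (BPQDs) and 1171 and 608 (TiO2). No error per peak and no read depth limit the peak values to the authors' own test.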
